A study of Arabidopsis thaliana with 12 samples.

Results

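The MLO genes encode plasma membrane proteins with several membrane-spanning helices. The report covers 10 of them, MLO1, MLO2, MLO3, MLO4, MLO6, MLO8, MLO10, MLO12, MLO14 and MLO15, among the 33610 genes of the count table. They were picked by gene identifier with their difference between HO and AX plants already known, so all values of HO against AX describe the members and are not a test of them. Of the 10, 8 passed the filter on low counts and are among the 17588 genes tested, while MLO14 and MLO15 did not pass it. The other 5 MLO genes of Arabidopsis (MLO5, MLO7, MLO9, MLO11 and MLO13) are given for comparison. In all, 12 RNA-seq libraries were made from whole rosettes of wild-type Arabidopsis thaliana Col-0 plants aged 21 days. HO (holoxenic) plants were grown with a live slurry of soil, and AX (axenic) plants with that slurry after it was autoclaved, in FlowPots filled with peat. The slurry came from either the MSU or the Malaka soil, which the sample descriptions call Laurel, and this gave 4 groups (HO-Malaka, HO-MSU, AX-Malaka and AX-MSU) of 3 libraries. Each library is a pool of 8 rosettes from 4 pots that shared a box, so the spread between libraries is that between pools.

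MLO proteins are named after barley Mlo, whose loss gives lasting resistance to the powdery mildew fungus. In Arabidopsis, MLO2, MLO6 and MLO12 form the clade known for this: MLO2 is the main susceptibility gene, and full resistance needs the loss of all members of the clade. The proteins carry a calmodulin-binding stretch near the C terminus, and several have been described as calcium channels that work with receptor kinases of the FERONIA family. Other members are known from other organs, namely MLO4 and MLO11 from the curling of roots on touch, MLO7 from the synergid cells of the ovule, and MLO1, MLO5, MLO9 and MLO15 from the pollen tube.

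The coding sequences of MLO2, MLO6 and MLO12 are more alike than those of other members, and these genes carry the results, so their near-matching stretches and promoters are shown first. MLO2 (AT1G11310) lies on the minus strand of chr1:3800500-3804233 of the TAIR10 genome, MLO6 (AT1G61560) on the minus strand of chr1:22708468-22712289 and MLO12 (AT2G39200) on the minus strand of chr2:16356041-16359943. In the RefSeq annotation their longest transcripts have 14, 11 and 15 exons. Identity of the coding sequences was 77.0% between MLO2 and MLO6, 69.9% between MLO2 and MLO12 and 67.7% between MLO6 and MLO12. The 21 pairs of one of these genes with another member had 46.3% to 55.4%. The reads were 50 bases long, and no exonic window of that length in any of the 15 MLO genes occurred a second time in the genome. The following pairs are the closest windows of MLO12 and MLO2 (chr2:16358871-16358920 and chr1:3802963-3803012) and of MLO6 and MLO2 (chr1:22710633-22710682 and chr1:3802523-3802572), 5′ to 3′ on the coding strand, with the 3 mismatches of each pair in capitals. They show that a read from even the most similar stretch differs at 3 bases between these genes.
MLO12: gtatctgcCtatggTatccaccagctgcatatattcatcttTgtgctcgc
MLO2: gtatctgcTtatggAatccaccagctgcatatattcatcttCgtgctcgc
MLO6: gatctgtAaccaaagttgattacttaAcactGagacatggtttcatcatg
MLO2: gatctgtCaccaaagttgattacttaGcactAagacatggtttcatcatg

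The 300 bases before the annotated start are printed for the same genes, because MLO12 and MLO6 differed between HO and AX plants and MLO2 hardly did. They are from chr2:16359944-16360243, chr1:22712290-22712589 and chr1:3804234-3804533, read on the minus strand, 5′ to 3′, and overlap no other annotated gene. Capitals mark the core of the W-box, the element that WRKY transcription factors bind, as TTGAC or, on the other strand, GTCAA.
MLO12: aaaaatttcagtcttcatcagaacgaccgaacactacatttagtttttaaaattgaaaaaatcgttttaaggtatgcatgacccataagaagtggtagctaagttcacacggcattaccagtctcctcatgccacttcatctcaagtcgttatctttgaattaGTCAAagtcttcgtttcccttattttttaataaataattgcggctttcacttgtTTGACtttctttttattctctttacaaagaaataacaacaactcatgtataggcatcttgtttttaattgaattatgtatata
MLO6: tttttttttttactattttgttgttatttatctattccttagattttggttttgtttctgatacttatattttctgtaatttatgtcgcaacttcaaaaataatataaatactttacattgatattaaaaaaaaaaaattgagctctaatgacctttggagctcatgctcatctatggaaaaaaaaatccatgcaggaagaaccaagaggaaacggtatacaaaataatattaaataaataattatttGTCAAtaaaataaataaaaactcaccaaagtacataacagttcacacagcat
MLO2: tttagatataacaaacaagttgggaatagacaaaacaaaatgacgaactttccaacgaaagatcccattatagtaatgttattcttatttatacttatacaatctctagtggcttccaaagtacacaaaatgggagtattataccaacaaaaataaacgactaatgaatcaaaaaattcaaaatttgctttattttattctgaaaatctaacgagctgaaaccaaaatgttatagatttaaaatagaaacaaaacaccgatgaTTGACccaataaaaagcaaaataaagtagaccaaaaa
MLO12 held 2 cores, 137 and 83 bases before the start, MLO6 held 1 at 52 bases and MLO2 held 1 at 37 bases. Of the 10 members 6 had at least 1 core, and only MLO12 had more than 1. Of the other 5 MLO genes only MLO7 had any, with 3. Over 27438 promoters of the same length, 50.4% held at least 1 core and 17.9% at least 2, so that the letters were common. A match is a string in a window, and binding was not measured.

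Libraries held between 10211008 and 22710086 counts, of which organelle genes took 48.5% to 57.7% and nuclear ribosomal RNA genes 9.88% to 21.8%. Values are given as CPM, which are counts scaled to a common library size with TMM factors, and 3 counts were worth between 0.134 and 0.303 CPM in a library. The leaf markers (6 genes, such as RBCS1A and CAB3) summed to 12640 to 13967 CPM in HO and 13359 to 14534 CPM in AX libraries. Of them LHCB2.1 was called lower (log2FC -0.24) and PORB higher (0.21) in HO plants. The 6 root markers summed to 122 to 168 CPM in HO and 107 to 138 CPM in AX libraries. Almost all of that was PYK10, a beta-glucosidase gene, which was called higher in HO plants with a log2FC of 0.24, while CASP1, LRX1, EXPA7 and AGP30 had 0 to 4 counts in any library. The 6 flower and pollen markers summed to 0.401 to 1.13 CPM in HO and 0 to 0.377 CPM in AX libraries. The senescence marker SAG12 had no count, SEN1 was called lower in HO plants with MSU (log2FC -0.79) but not with Malaka (0.40), a difference between the soils that was itself called (-1.20), and SAG13 had 130 counts in HO and 3 in AX libraries (log2FC 5.02). What part the leaf, root, flower and senescence markers have in the MLO values was not tested.

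MLO12 was the member that differed most between HO and AX plants. HO-Malaka libraries held 101, 59 and 118 counts, or 5.87, 5.55 and 8.33 CPM. HO-MSU libraries held 193, 106 and 135 counts, or 11.8, 4.73 and 10.2 CPM. AX-Malaka libraries held 0, 2 and 1 counts and AX-MSU libraries 1, 1 and 5, none above 0.352 CPM. Every HO library therefore lay above every AX library, and 5 of the 6 AX libraries were below what 3 counts are worth. HO plants had 7.74 ± 2.83 CPM (SD, n = 6) and AX plants 0.118 ± 0.122 CPM (SD, n = 6). The normalized ratio of the pooled counts was 63.4, with a 95% interval of 34.3 to 133 that covers counting error only. The fitted log2FC was 5.93, with a standard error of 0.35, which placed MLO12 at rank 12 from the highest among the 17588 genes tested. That standard error was derived from the test statistic. The 95% interval from it, 5.22 to 6.65, was narrower than the counting interval on the same scale, so it understates the uncertainty. Since each library is a bulk sample of whole rosettes, more cells that express the gene and more RNA per cell cannot be told apart.

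The difference at MLO12 was present with each soil. With Malaka the ratio was 84.5 (28.6 to 412, with only 3 counts in AX plants) and the log2FC 6.25 (standard error 0.55, rank 22). With MSU the ratio was 54.1 (26.0 to 135) and the log2FC 5.75 (standard error 0.45, rank 14). Both counting intervals were again wider than those from the standard errors. Single AX libraries moved the log2FC. It was 6.95 with Malaka without AX-Malaka replicate 2. Without AX-MSU replicate 3 it was 6.92 with MSU and 6.56 over both soils. The difference between these log2FC was -0.50, with a 95% interval of -2.77 to 1.77. The interval is wide because the AX libraries supply so few counts, and the sign of this difference turned without AX-MSU replicate 3 (0.67), the library with 5 counts, and without AX-Malaka replicate 1 (0.02). At its end, 57 of the 2091 exonic bases of MLO12 overlap AT2G39190 on the other strand. That gene had 294 to 656 counts in HO and 287 to 488 counts in AX libraries (log2FC 0.03), and the library kit keeps the strand. Whether the counting used it is not given in the sources used here.

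**Figure D1:**
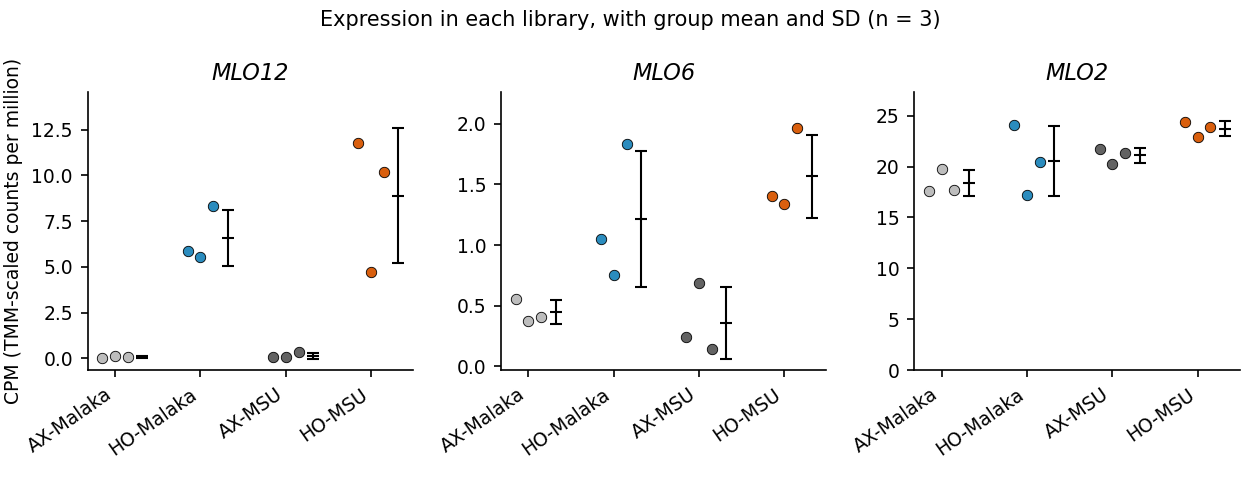
CPM of MLO12, MLO6 and MLO2 in each of the 12 libraries (points), by group, with the group mean and SD beside them (bars, n = 3), each gene on its own axis. MLO12 was at most 0.352 CPM in AX and at least 4.73 CPM in HO libraries, and MLO2 lies between 17.2 and 24.4 CPM in all libraries. The MLO6 groups lie apart by a narrow gap, which is lost when libraries are scaled by total counts alone.

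MLO6 was low in all rosettes and higher in HO plants. HO-Malaka libraries held 18, 8 and 26 counts (1.05, 0.752 and 1.83 CPM) and HO-MSU libraries 23, 30 and 26 counts (1.41, 1.34 and 1.96 CPM). AX-Malaka libraries held 7, 6 and 4 counts (0.559, 0.377 and 0.404 CPM) and AX-MSU libraries 4, 10 and 2 counts (0.239, 0.691 and 0.141 CPM). The lowest HO library, HO-Malaka replicate 2, was just above the highest AX library, AX-MSU replicate 2, so that the groups did not overlap. The means were 1.39 ± 0.459 CPM over the 6 HO libraries and 0.402 ± 0.202 CPM over the 6 AX libraries (SD), with a log2FC of 1.79 (standard error 0.36). The ratio of the pooled counts was 3.54, with a counting interval of 2.40 to 5.35. Within the soils the log2FC was 1.45 (standard error 0.52) with Malaka and 2.11 (standard error 0.50) with MSU, and the difference between them was 0.66 with a 95% interval of -0.87 to 2.19. With Malaka the FDR was not under 0.05. With MSU it was, but not without AX-MSU replicate 1 (log2FC 1.87) or without AX-MSU replicate 3 (1.75). Leaving out AX-MSU replicate 2 instead, the log2FC with MSU was 2.95 and the difference between the soils 1.51. In the annotation 429 of 2856 exonic bases of MLO6 overlap a non-coding locus on the other strand that is not among the rows used here.

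MLO2, the member with the most reads, hardly differed. HO-Malaka libraries had 24.1, 17.2 and 20.5 CPM and HO-MSU libraries 24.4, 22.9 and 23.9 CPM. AX-Malaka libraries had 17.6, 19.8 and 17.7 CPM and AX-MSU libraries 21.7, 20.3 and 21.4 CPM. With MSU the HO libraries were all above the AX libraries, whereas with Malaka HO replicate 2 was the lowest of the 6. The mean was 22.2 ± 2.81 CPM over the 6 HO libraries and 19.7 ± 1.77 CPM over the 6 AX libraries (SD), a log2FC of 0.17 with a 95% interval of 0.01 to 0.33, which was not called. The log2FC was 0.17 with Malaka (standard error 0.11) and 0.17 with MSU (standard error 0.11), the latter moving to -0.002 when libraries were scaled by total counts alone. A change of the size seen at MLO6 lies outside the interval of MLO2. In MLO2, 352 of 2709 exonic bases overlap a non-coding locus on the other strand that is not among the rows used here.

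The 5 other members tested had log2FC between -0.06 and 0.58 over both soils, and none was called. MLO10 had the largest, 0.58 (standard error 0.33). HO-Malaka libraries had 1.40, 0.940 and 1.62 CPM against 0.479, 0.692 and 0.505 CPM in AX-Malaka libraries, a log2FC of 1.22 (standard error 0.46). With MSU, HO libraries had 0.611, 0.803 and 1.06 CPM against 0.596, 1.24 and 0.634 CPM in AX libraries, a log2FC of -0.01 (standard error 0.44). Without AX-MSU replicate 2, the highest of these, it was 0.40. Thus the Malaka groups of MLO10 did not overlap and the MSU groups did. The difference between the soils was -1.23 with a 95% interval of -2.55 to 0.09, which was not called and moved to -0.82 without that library. All of these values rest on 5 to 24 counts per library.

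MLO3 had a log2FC of 0.51 (standard error 0.28) and MLO8 one of 0.32 (standard error 0.13). At MLO3, HO-MSU libraries had 1.53, 1.65 and 1.28 CPM and AX-MSU libraries 0.954, 1.17 and 0.705 CPM, while all Malaka libraries lay between 0.404 and 0.943 CPM, with the groups overlapping. At MLO8, HO-Malaka libraries had 8.26, 7.80 and 6.92 CPM and AX-Malaka libraries 5.99, 6.10 and 6.67 CPM, while all MSU libraries lay between 3.38 and 6.34 CPM, with the groups overlapping. Each of these genes therefore separated HO from AX libraries with one soil only. The MLO3 values rest on few counts, 115 over all HO and 70 over all AX libraries. MLO8 was called once AX-MSU replicate 3 was left out (log2FC 0.44), its highest AX-MSU library.

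MLO1 and MLO4 had log2FC of 0.02 (standard error 0.16) and -0.06 (standard error 0.23). MLO1 ranged from 3.95 to 7.64 CPM in HO and from 3.51 to 6.48 CPM in AX libraries. MLO4, a gene of root touch responses, ranged from 1.22 to 2.04 CPM in HO and from 1.19 to 2.14 CPM in AX libraries. For both genes the HO and AX ranges nearly coincided. The 95% interval of the log2FC was -0.31 to 0.35 at MLO1 and -0.54 to 0.42 at MLO4. With total counts alone MLO1 had a log2FC of -0.09.

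MLO14 and MLO15 were all but absent from the rosettes. MLO14 had 3 counts in HO-Malaka replicate 3 and none in the other libraries. In that library the root gene AGP30 and the pollen gene VGDH1 also had 3 counts each. MLO15, a pollen tube gene, had no count in any library, which allows up to 0.0169 CPM over all libraries. The same held for most of the MLO genes outside the list: MLO5 had 2 counts in all, MLO13 had 32, and MLO7 and MLO9 had 37 each. Only MLO11 of these passed the filter, with 1.41 to 3.61 CPM in HO and 1.70 to 4.09 CPM in AX libraries and a log2FC of -0.08 (standard error 0.22). Thus the genes known from pollen and synergids were at or near 0, with the exception of MLO1, and the root genes MLO4 and MLO11 were detected.

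**Figure D2:**
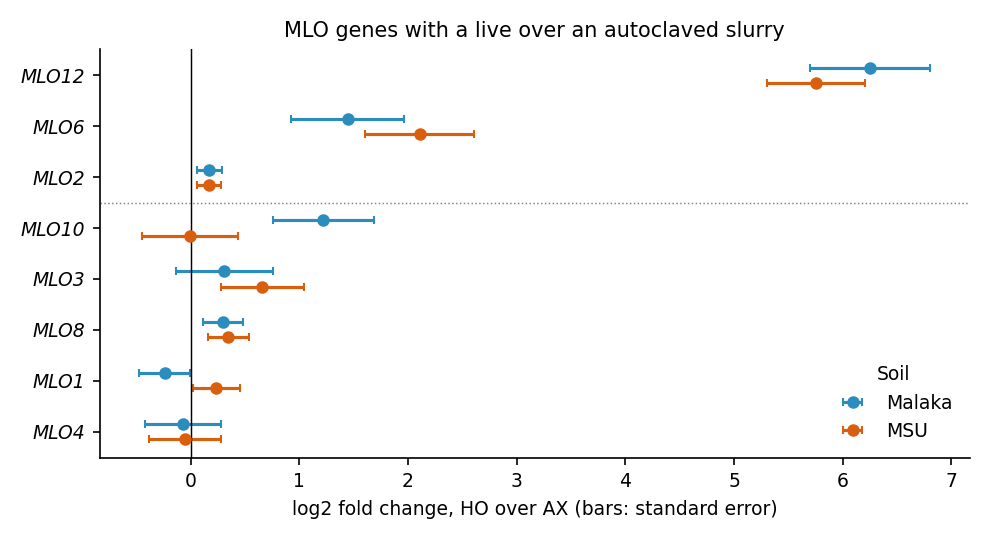
Log2 fold change of HO over AX plants for the 8 members tested, with Malaka (blue) and with MSU (orange), with bars of 1 standard error. The dotted line divides MLO2, MLO6 and MLO12 from the other members. MLO12 stands near 6 with both soils, MLO6 between 1.45 and 2.11, and only MLO10 among the rest exceeds 1, with Malaka alone.

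Over both soils 2 of the 8 members tested, MLO12 and MLO6, had an FDR under 0.05, both higher in HO plants and both also DEGs with a log2FC of at least 1. Of all genes tested 5.01% were called higher and 1.56% were DEGs higher in HO plants. In CPM, HO and AX libraries did not overlap at the same 2 members, against 2.51% of genes with all HO libraries higher. Within the soils, 1 of 8 was called with Malaka (MLO12) and 2 of 8 with MSU (MLO12 and MLO6), where 2.49% and 3.3% of all genes were called higher. With Malaka MLO6, MLO8, MLO10 and MLO12 did not overlap (10.1% of genes), and with MSU MLO2, MLO3, MLO6 and MLO12 did not (12.4% of genes). By total counts alone MLO6 overlapped over both soils and with Malaka. Since the members were chosen on this contrast, these counts describe them only. The median log2FC of the 8 was 0.42, beside 0.005 over all genes tested. It was 1.79 for MLO2, MLO6 and MLO12, which span 0.17 to 5.93, and 0.32 for the other 5, so that the clade itself held both the largest difference and one of the smaller ones. The interaction of soil and treatment was called at 0 of 8 members, beside 0.279% of all genes. At none of the 8 was its unadjusted p under 0.05, as it was at 8.11% of all genes. DESeq2 also called 0 of 8.

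Levels of different genes were compared per kb of exon. Of the 9 MLO genes tested, MLO2 had over all libraries 7.73 ± 0.950 CPM per kb (SD, n = 12), above 80.1% of the genes tested that have a length. No other MLO gene reached it in any library. In AX plants the order went on with MLO1 (2.19 ± 0.488 CPM per kb) and MLO8 (2.19 ± 0.545), then MLO11 (1.06 ± 0.330), MLO4 (0.739 ± 0.195), MLO3 (0.463 ± 0.158), MLO10 (0.306 ± 0.125), MLO6 (0.141 ± 0.0706) and last MLO12 (0.0564 ± 0.0586, SD, n = 6 each). In HO plants MLO12 was the second, at 3.70 ± 1.35 CPM per kb, followed by MLO8 (2.73 ± 0.459), MLO1 (2.27 ± 0.685), MLO11 (0.982 ± 0.293), MLO4 (0.720 ± 0.135), MLO3 (0.677 ± 0.215), MLO6 (0.487 ± 0.161) and MLO10 (0.475 ± 0.167, SD, n = 6 each). Neighbours in this order overlapped between libraries in both treatments, apart from MLO2 and the gene after it, and apart from MLO1 and MLO11 in HO plants. MLO12 and MLO8 thus could not be ordered in HO plants, nor MLO12 and MLO6 in AX plants.

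The make-up of the clade differed accordingly. In AX libraries MLO2 made up 96.5% to 98.6% of the clade's CPM per kb and MLO12 at most 2.08%. In HO libraries MLO2 made up 59.5% to 75.6%, MLO12 20.2% to 37.3% and MLO6 2.84% to 5.27%. The clade as a whole took 47.9% to 53.3% of the CPM per kb of all 15 MLO genes in AX libraries and 54.1% to 63.1% in HO libraries. The sum over the 15 genes ran from 13.1 to 16.5 CPM per kb in AX and from 17.1 to 24.0 CPM per kb in HO libraries. These shares and sums follow from the values of the single genes, mostly but not only those of MLO12, and are no separate result.

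**Figure D3:**
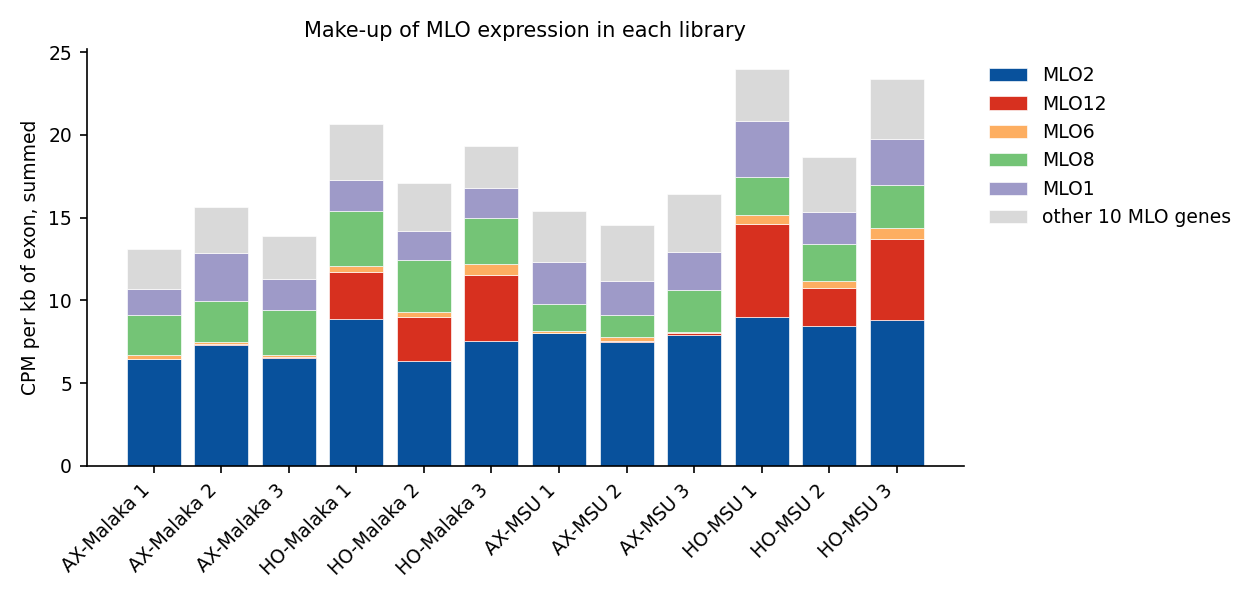
CPM per kb of exon of the 15 MLO genes, stacked for each library, with MLO2, MLO12, MLO6, MLO8 and MLO1 in colour and the remaining 10 genes together in grey. The MLO12 block is visible in the 6 HO libraries and is at most 0.168 CPM per kb in the AX libraries, while the MLO2 block stays between 6.35 and 9.00 CPM per kb.

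The comparison of the soils was not used to choose the members, so it was tested. Over both treatments, edgeR called 0 of 8 members between MSU and Malaka plants after Benjamini-Hochberg adjustment (45 of all genes, 0.256%), although 4 of the 8 had an unadjusted p under 0.05, as did 10.02% of all genes. DESeq2 also called 0. The lowest adjusted p was at MLO8, which was lower with MSU by a log2FC of -0.43 ± 0.13 (standard error), with an adjusted p of 0.192 in edgeR. Its 6 MSU libraries lay between 3.38 and 6.34 CPM and its 6 Malaka libraries between 5.99 and 8.26 CPM. MLO2 was higher with MSU by 0.20 ± 0.08 and MLO3 by 0.64 ± 0.29 (standard errors), with adjusted p of 0.364 and 0.428 in edgeR. MLO1 had 0.34 (standard error 0.16) and MLO12 0.43 (standard error 0.25, 95% interval -0.08 to 0.95). No difference between the soils thus passed the threshold, and the 95% intervals of MLO8, MLO2, MLO3 and MLO1, which are not adjusted for the number of genes, did not reach 0.

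Within a treatment edgeR again called 0 of 8 members between the soils in AX plants, with 1 unadjusted p under 0.05 (9.40% of all genes). In HO plants it called 0 of 8, with 2 unadjusted p under 0.05 (9.15% of all genes). DESeq2 called 0 in either. Of all genes 0.648% were called in AX and 0.29% in HO plants. In HO plants MLO1 had 6.11 ± 1.64 CPM with MSU and 4.06 ± 0.0951 CPM with Malaka (SD, n = 3 each), a log2FC of 0.57 ± 0.22 (standard error), with an adjusted p of 0.39 in edgeR. MLO12 had 8.90 ± 3.70 CPM with MSU and 6.58 ± 1.52 CPM with Malaka (SD, n = 3 each), a log2FC of 0.41 with a 95% interval of -0.12 to 0.94. The HO-MSU libraries lay on both sides of the HO-Malaka libraries at MLO12, and above all of them at MLO1, as they did at 6.38% of all genes.

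The genes whose profiles were most like those of the clade were looked up as a description. Likeness was the mean over the 12 libraries of the absolute difference in log2 CPM, after each gene was centred on its own mean. For MLO12 the nearest were AT5G64120 (a peroxidase gene) at 0.262, FRK1 (a receptor kinase gene used as a reporter of pattern-triggered immunity) at 0.264 and AT2G43620 (a chitinase family gene) at 0.303. AT5G64120 had a mean of 17.5 CPM in HO and 0.504 CPM in AX plants, FRK1 4.44 and 0.0350 CPM, and AT2G43620 7.06 and 0.135 CPM. For MLO6 the nearest were CTF2B at 0.293, the extensin gene EXT4 at 0.303 and RGXT2, which encodes a xylosyltransferase of pectin, at 0.304. For MLO2 they were the receptor kinase gene AT5G49760 at 0.0590, CRK40 at 0.0722 and the chloroplast locus ATCG01270 at 0.0729. The nearest genes of MLO2 had log2FC of 0.11 to 0.14, so that its profile is a nearly flat one.

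Resistance of mlo2 mutants to powdery mildew needs genes of entry resistance, and 15 genes of that pathway or of the response to mildew were looked up. They were chosen with earlier results of these data known, so their counts and adjusted p describe them and are not a test. Over both soils 8 of the 15 were called higher in HO plants and none lower, where 5.01% of all genes were called higher, and their median log2FC was 0.39. Among them were genes of the secretory complex at the site of attack. SYP122, a plasma membrane syntaxin, had 7.18 to 11.5 CPM in HO and 3.25 to 6.47 CPM in AX libraries (log2FC 0.98 with standard error 0.14 and an adjusted p of 1.13e-05 in edgeR). Its close relative PEN1 had 8.46 to 12.9 CPM in HO and 6.69 to 8.31 CPM in AX libraries (log2FC 0.39 with standard error 0.11 and an adjusted p of 0.0154 in edgeR). SNAP33, the adaptor that pairs with PEN1, stood at a log2FC of 0.46 ± 0.11 (standard error), with an adjusted p of 0.00643 in edgeR. VAMP721 (-0.23) and VAMP722 (-0.07), the vesicle partners of that complex, named here after their values were seen, were not called. Both syntaxin genes thus separated HO from AX libraries, as 2.51% of all genes did with HO higher, and by far less than MLO12. At SNAP33 the HO and AX libraries overlapped.

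The others called higher were the genes of indole glucosinolate defence CYP81F2 (1.89), PEN3 (0.99), MYB51 (0.94) and PEN2 (0.57), together with EDR1 (0.40), a kinase gene that restrains the mildew response. The 3 genes not called with the smallest log2FC were PMR5 (-0.02), CYP79B3 (-0.04) and PMR4 (0.05), the last being the callose synthase of the cell wall deposits. The call of EDR1 was lost without any 1 of 8 of the libraries (log2FC 0.35 to 0.40), and that of PEN1 without HO-Malaka replicate 3 (0.31). With total counts alone 5 of the 15 were called, without PEN1, SNAP33 and EDR1. Within the soils 5 of 15 were called higher with Malaka and 7 of 15 with MSU, where 2.49% and 3.3% of all genes were. None was called lower. Of the genes called over both soils, MYB51 was called with Malaka only, and EDR1 and SNAP33 with MSU only. PEN1 was called with neither soil (adjusted p of 0.179 with Malaka and 0.126 with MSU in edgeR). PMR6, not called over both soils, was called with MSU (log2FC 0.36), a call lost without any 1 of 5 of the libraries. The interaction of soil and treatment was called at 0 of the 15. The call of SYP122 with Malaka was lost without any 1 of 3 of the libraries, and that of SNAP33 with MSU without any 1 of 4.

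**Figure D4:**
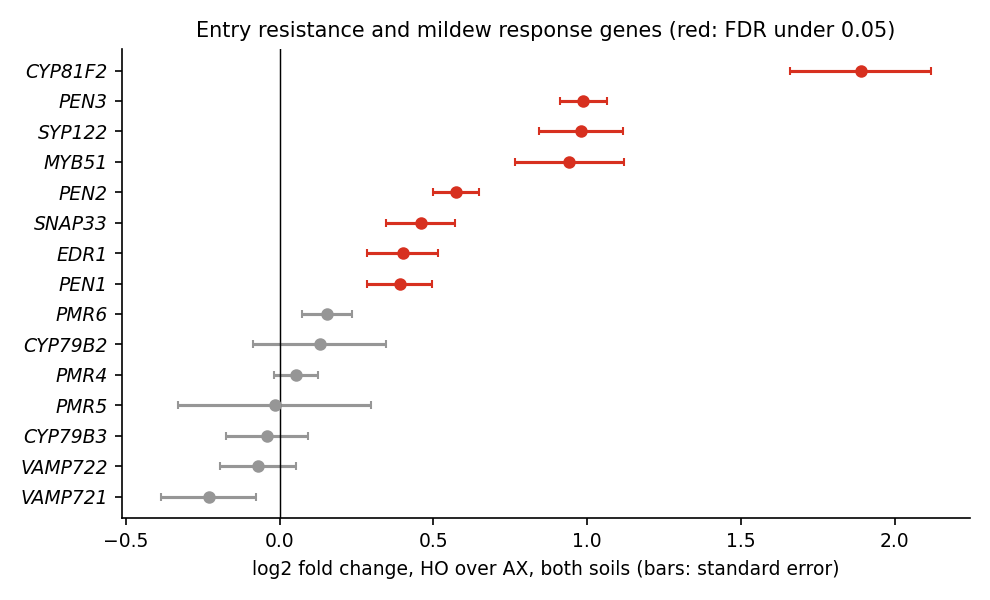
Log2 fold change of HO over AX plants over both soils for 15 genes of entry resistance and mildew response, with bars of 1 standard error. The 8 genes in red had an FDR under 0.05 and lie between 0.39 and 1.89, while the 7 in grey lie between -0.23 and 0.15.

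The genes of MLO protein partners had log2FC between -0.38 and 0.30 over both soils. Their lists were chosen with the same knowledge, so the values describe them only. Of the 7 calmodulin genes none was called higher and CAM7 was called lower in HO plants, beside 5.16% of all genes, with 8.52 to 9.77 CPM in HO and 8.71 to 16.4 CPM in AX libraries (log2FC -0.38 with standard error 0.12 and an adjusted p of 0.0351 in edgeR). The call of CAM7 was lost without any 1 of 8 of the libraries, and without AX-MSU replicate 2 the log2FC was -0.24. The smallest log2FC among those not called were CAM6 (-0.02), CAM5 (-0.12) and CAM3 (0.16), and the largest were CAM2 (0.30) and CAM4 (0.26). Within the soils the calmodulin genes ran from -0.34 to 0.49 with Malaka (CAM4 the highest) and from -0.42 to 0.18 with MSU, and none was called. The receptor kinase genes FER (-0.01) and HERK1 (-0.02) and LLG1 (-0.22), which encodes a GPI-anchored partner of FERONIA, were not called. LLG1 had -0.32 with Malaka and -0.13 with MSU, neither of them called. FER had 57.6 to 63.7 CPM in HO and 56.0 to 66.9 CPM in AX libraries, so that its ranges nearly coincided.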

How the data were processed

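RNA was measured in 12 libraries of whole rosettes. The authors trimmed single-end, stranded reads with Trimmomatic 0.39, mapped them with STAR to TAIR10 and counted them per gene with featureCounts of Rsubread, and deposited the counts without normalization. The annotation they counted on is not given in the sources used here. Each column is a library, and groups and replicate numbers come from the labels.

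The members and the lists of genes were chosen with earlier results of these data known. Counts were analysed in R 4.3.3 with edgeR 4.0.16 (TMM, filterByExpr with a minimum count of 10 and a minimum total of 15, glmQLFit and glmQLFTest) on the 17588 genes that passed. HO and AX plants were compared with soil as a term, and all other comparisons were taken from a fit with 1 mean for each of the 4 groups, apart from that of the soils over both treatments, which is the soil term. Genes called had a Benjamini-Hochberg FDR under 0.05 over all genes tested, and DEGs also a |log2FC| of at least 1. Standard errors of log2FC were taken as the absolute log2FC over the square root of the F statistic of the test. They are approximate, most of all where a group has few counts. Intervals of log2FC are 95% intervals from these standard errors. Intervals of ratios come from the exact binomial distribution, and, since the reads carry no molecular identifiers, these intervals and the limit of 3 counts for a gene without counts cover counting error only. The code was tested on simulated data.

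All MLO genes are named. From the lists of entry resistance, calmodulin and receptor partner genes, the genes called over both soils and the 3 others with the smallest log2FC are named, and for MLO2, MLO6 and MLO12 the 3 genes most alike. VAMP721, VAMP722, PMR6, CAM2 and CAM4 are named beside these. Alternatives were DESeq2 1.42.0, RLE factors, total counts alone, looser filters (none, or 0.5 CPM in at least 1 library), no ribosomal RNA or organelle genes, dropping the soil term, fitting the libraries of each soil by themselves, a block for the replicate number, and leaving out 1 library at a time. Positions and sequences are from the TAIR10.1 RefSeq genome and annotation, whose nuclear chromosomes have the lengths of TAIR10. Protein sequences were not used here. The value of 1 marker gene is not reported here. Figures were drawn with matplotlib 3.10.9.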

Additional observations from a re-analysis of the deposited data

Results flagged for a closer look

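Among 18 sets of 6 libraries of a treatment (HO or AX at each gene examined), 2 held a library that stood far from the other 5. For normal values of a single population chance gives about 1 in 20 of such sets. Each set here pools 2 soils, and some rest on few counts, so that rate is a rough guide only. At MLO10, AX-MSU replicate 2 had 1.24 CPM and the other AX libraries 0.479 to 0.692 CPM. At MLO12, AX-MSU replicate 3 had 0.352 CPM, from 5 counts, and the other AX libraries 0 to 0.126 CPM.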

How the results depend on the processing

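Of 1199 values of MLO genes under the alternatives, 1196 kept their side of the threshold and no called value changed direction. Most of these values belong to results that were not called to begin with, so the share says little about how stable the calls are. Values not called did change direction, at most 10 of them in a single alternative, which was without AX-MSU replicate 3. The log2FC of MLO12 over both soils stayed between 5.72 and 6.56 and that of MLO6 between 1.59 and 2.03. The count of members called stayed at 2 over both soils, apart from 3 without AX-MSU replicate 3 (MLO8 added), and at 1 with Malaka. With MSU it ran from 1 to 2 when a library was left out, because the call of MLO6 was lost without AX-MSU replicate 1 (1.87) and without AX-MSU replicate 3 (1.75). The counts between the soils and of the interaction stayed at 0. Total counts alone moved the median of all genes to -0.10 over both soils and to -0.16 with MSU, and reduced the entry resistance genes called higher from 8 to 5 and, with MSU, from 7 to 3. Why these counts moved was not tested. MLO1 over both soils then had -0.09 and MLO2 with MSU -0.002. For calmodulins, the count lower ran from 0 to 1 with a library left out, and CAM4 was called higher without AX-MSU replicate 2 (0.39). Deviations of libraries with the same replicate number had r between -0.03 and 0.19 (median 0.02) over 18 pairs, 1 of them above 0.1. Over 36 pairs with different numbers r ran from -0.16 to 0.09 (median -0.02). Of 12 libraries 8 correlated best with their own number, where 18 pairs shared a number and 36 did not. These matches are not independent, since 2 libraries can be each other's best match. What libraries of the same number share was not tested. With the replicate number as a block, the counts of members called were 2 over both soils, 1 with Malaka, 2 with MSU and 0 otherwise. Of all genes, 922 were then called higher and 989 lower over both soils, against 881 and 908 without the block. Among the members tested, MLO6, MLO10 and MLO12 in AX plants rest on 0 to 18 counts a library, which limits their precision. MLO3 is nearly as sparse, with 70 counts over all AX libraries, beside 59 at MLO10.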
